A study of Mus musculus with 2 samples.

Results

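The ribbon synapse genes of inner hair cells described here are Otof, Slc17a8, Ctbp2, Cacna1d, Bsn and Pclo. They were chosen by name, as every row of the series' gene annotation that carries one of these 6 symbols, and make up 6 of 28002 genes and 998 of 1511492 rows. The series set a library from mouse cochleae given an Anc80 virus that carries Ikzf2 against a library from cochleae given an Anc80 virus that carries GFP, the control. Both groups were Myo15-Cre;Ai14 mice at postnatal day 8, so that tdTomato was made where the Myo15 promoter, a hair cell promoter, had driven Cre. Cells positive for tdTomato were enriched by flow sorting and captured with a droplet kit that reads the 3' ends of transcripts. Each group was 1 library with no replicate, and no level of any gene in either library was analysed here. What follows describes the gene models against which reads could be counted. All values are properties of these models, so they carry no replicate spread and no test was made.

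An inner hair cell releases glutamate onto auditory nerve fibres without pause for as long as sound lasts. Its active zones carry an electron-dense ribbon that tethers synaptic vesicles next to calcium channels. Ribeye, the main protein of the ribbon, comes from Ctbp2 and joins a domain found in ribeye alone to a domain that it shares with the transcriptional corepressor CtBP2. Bassoon (Bsn) and piccolo (Pclo) are giant scaffold proteins of the active zone, and bassoon helps to anchor the ribbon. Calcium enters through CaV1.3, whose pore-forming subunit Cacna1d encodes. Otof encodes otoferlin, a membrane-anchored protein with C2 domains that is needed for calcium-triggered vesicle fusion, and Slc17a8 encodes VGLUT3, which fills the vesicles with glutamate.

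The long and the short form of Ctbp2 differ in the exon that is joined to the shared part of the message. The sequences at this joint are shown because they mark where the messages of ribeye and CtBP2 come together. Each line gives the last 30 bases of an alternative exon in lower case and the first 30 bases of the shared exon (chr7:132999191-132999345, minus strand, GRCm38) in capitals. The exon before the joint lies at chr7:133013518-133015248 in the long form Ctbp2-004, at chr7:133025713-133025872 in the short form Ctbp2-001 and at chr7:133023563-133023757 in Ctbp2-018.
Ctbp2-004: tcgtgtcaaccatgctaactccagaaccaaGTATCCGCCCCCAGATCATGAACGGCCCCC
Ctbp2-001: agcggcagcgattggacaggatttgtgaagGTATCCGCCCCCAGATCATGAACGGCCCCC
Ctbp2-018: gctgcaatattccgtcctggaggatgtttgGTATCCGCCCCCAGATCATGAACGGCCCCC
In all 3 transcripts 1 base is left over after the last whole codon before the joint, so the shared exon is read in the same frame from each.

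The start codons lie in different exons as well. Each line below shows 45 bases with the start codon in capitals.
Ctbp2-004 start: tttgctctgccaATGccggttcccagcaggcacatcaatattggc
Ctbp2-001 start: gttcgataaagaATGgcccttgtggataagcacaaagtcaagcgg
Ctbp2-002 start: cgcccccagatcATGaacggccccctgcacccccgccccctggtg
The long form starts at chr7:133015202-133015204 and the short form at chr7:133025768-133025770, 10566 bases further upstream in the gene. Ctbp2-002 starts at chr7:132999326-132999328, which is 17 bases into the exon that the other forms share. Its start codon is the ATG that can be seen in the capitals of the lines that show the joint.

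Ctbp2 (ENSMUSG00000030970) was placed at chr7:132987563-133124354, minus strand, a span of 136792 bases. The ribeye-type exon was 1731 bases long, with 44 bases ahead of the start codon and 1687 coding bases, or 562 whole codons and 1 base. The matching coding part of the short form was 58 bases, or 19 whole codons and 1 base, in an exon of 160 bases. The long coding part was thus 29.1 times the short one. It made up 56.9% of the coding sequence of the long form. Behind the joint both forms used the same 8 coding exons with 1277 coding bases, and the same stop codon at chr7:132988171-132988173. The shared bases were 43.1% of the coding sequence of the long form and 95.7% of that of the short form.

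The annotated lengths came to 988 amino acids for the long form, 445 for the short form and 420 for Ctbp2-002. The long form thus had 543 amino acids more than the short form, and the short form 25 more than Ctbp2-002. The ribeye-type exon was itself the first exon of the long form, with no noncoding exon before it. The short form had 2 noncoding exons first, at chr7:133123141-133123367 and chr7:133081757-133081860, and its start codon stood in exon 3. Its message began 108119 bases upstream of that of the long form.

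The ribeye-type exon was not used as a first exon only. Among the 20 transcripts of Ctbp2, 8 with a first exon elsewhere reached into it, and 3 of these 8 were protein-coding. The start codon of the long form was annotated in 2 of the 8, Ctbp2-009 and Ctbp2-010. Both held it in exon 4, but their models broke off after 41 and 83 coding bases. Ctbp2-003, whose first exon overlaps the ribeye-type exon, used the same start codon and was annotated as a target of nonsense-mediated decay. It left the ribeye-type exon after 539 coding bases, reentered it and coded for 188 amino acids. The second exon of the short form, which is noncoding, stood in 15 of the 20 transcripts.

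The protein-coding transcripts of Ctbp2 used 8 first exons that do not overlap, the most among the 6 genes. The upstream 6 of them lay within 12563 bases of the outermost start, and none of these 6 held a start codon. The other two were the first exon of Ctbp2-018, 100597 bases from the outermost start, and the ribeye-type exon, 109106 bases from it. The first exon of Ctbp2-018 added 7 coding bases, 2 codons and 1 base, to the shared exons. Only 3 of the 12 protein-coding transcripts had both a start and a stop codon, since 9 had no annotated stop codon. The start codon of the short form was annotated in 6 transcripts. The 12 distinct coding sequences of Ctbp2 were therefore mostly fragments.

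**Figure D1:**
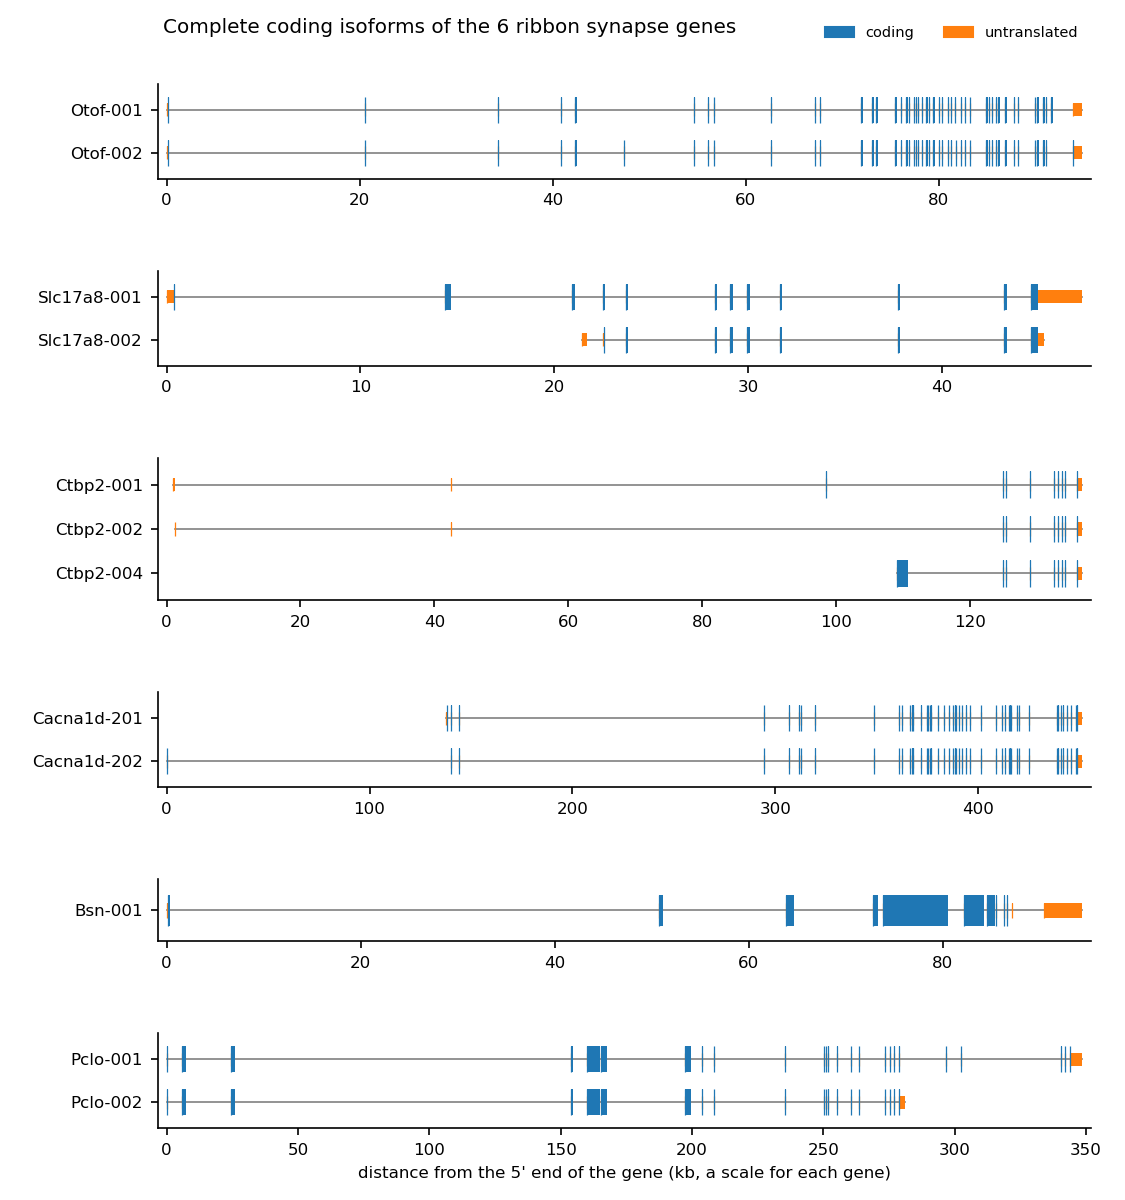
Gene models of the 12 complete coding isoforms of the 6 genes, drawn from the 5' end of each gene (horizontal axis, kb, with a scale of its own for each gene). Blue marks coding exons, orange untranslated exons and grey lines introns; thin marks are widened to be visible. The wide blue block that opens Ctbp2-004 is the ribeye-type exon, and the wide blocks of Bsn-001 and Pclo-001 are their exons of 6642 and 5059 coding bases.

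Bsn (ENSMUSG00000032589), the bassoon gene, was placed at chr9:108096022-108190384, minus strand, and spanned 94363 bases. Bsn-001 coded for 3942 amino acids in 11829 bases, and 73 of 21990 protein-coding genes had a longer coding sequence. Coding lengths of whole genes include the stop codon, while those of exons and of parts shared between isoforms leave it out. Most of it came from 1 exon of 6642 coding bases, 56.2% of the total, a share close to that of the ribeye-type exon in Ctbp2-004. A longer coding exon was found in 25 genes. Coding sequence filled 12.5% of the span of Bsn, the highest share among the 6 genes. Its second protein-coding transcript, Bsn-002, had no start codon and began at an exon 79971 bases downstream.

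Pclo (ENSMUSG00000061601), the piccolo gene and a paralogue of Bsn, was the only one of the 6 on a plus strand, at chr5:14514918-14863459. Its span of 348542 bases was well above that of Bsn. Pclo-001 coded for 5068 amino acids in 15207 bases, with 20 genes longer. Its 25 coding exons compared with 10 in Bsn-001. Its longest coding exon had 5059 bases, 33.3% of the coding sequence, and 60 genes had a longer one.

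Both complete forms of Pclo began at the same exon and parted near the end. Pclo-002 coded for 4863 amino acids, 205 fewer than Pclo-001. In Pclo-001 the exon at chr5:14793832-14794026 is spliced to 5 more coding exons, and the coding part of the last one ends at 14858883. In Pclo-002 the exon from 14793832 runs on past 14794026, adds 14 coding bases and has its stop codon at chr5:14794041-14794043. The lines below show the last 30 shared bases in lower case and what follows in capitals.
Pclo-001: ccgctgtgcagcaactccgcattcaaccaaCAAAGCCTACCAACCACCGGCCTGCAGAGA
Pclo-002: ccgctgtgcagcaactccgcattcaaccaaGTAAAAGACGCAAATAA
The capitals of Pclo-002 begin with the GT that opens the intron in Pclo-001, and they end with the stop codon TAA. The 3' ends of the forms lay 67466 bases apart. Another protein-coding model, Pclo-004, shared the stop codon of Pclo-002 but had no start codon.

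Cacna1d (ENSMUSG00000015968), the calcium channel gene, was placed at chr14:30039949-30491156, minus strand. Its span of 451208 bases was the longest among the 6, and 271 genes spanned more. Coding sequence filled 1.44% of it, the lowest share of the 6, and its intron 3 alone had 149934 bases in Cacna1d-202. The 2 transcripts had 47 coding exons each and shared 46 of them. They differed in the first exon, and the starts of their messages lay 137670 bases apart. The lines below give the coding part of each first exon in lower case, followed by 30 bases of the shared second exon in capitals. The first exons lie at chr14:30490969-30491156 in Cacna1d-202 and at chr14:30352925-30353486 in Cacna1d-201.
Cacna1d-202: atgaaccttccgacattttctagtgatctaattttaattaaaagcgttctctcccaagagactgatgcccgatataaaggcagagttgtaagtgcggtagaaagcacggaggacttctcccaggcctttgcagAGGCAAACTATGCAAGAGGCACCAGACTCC
Cacna1d-201: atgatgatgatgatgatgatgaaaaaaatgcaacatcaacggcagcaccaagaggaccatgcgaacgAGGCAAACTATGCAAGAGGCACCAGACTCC
Cacna1d-202 had 133 coding bases there, 44 codons and 1 base, against 67 bases in Cacna1d-201, 22 codons and 1 base. The reading frame into exon 2 was thus the same. Cacna1d-201 opened with 7 ATG codons in a row. The complete proteins had 2166 amino acids for Cacna1d-202 and 2144 for Cacna1d-201, with 98.0% of the coding bases of the longer form shared.

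Otof (ENSMUSG00000062372), the otoferlin gene, was placed at chr5:30367062-30461932, minus strand, and spanned 94871 bases, almost as many as Bsn. Its coding sequence was spread evenly. Otof-001 had 46 coding exons for 5994 coding bases, and the longest of them had 242 bases, 4.04% of the total. A longer coding exon was found in 14221 genes, while 446 had a longer coding sequence. Both protein-coding transcripts shared 1 first exon and 1 start codon. The proteins had 1997 amino acids for Otof-001 and 1992 for Otof-002.

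The near-equal lengths hid 3 differences. Otof-002 had an added exon of 45 bases, where no exon of Otof-001 lies, at chr5:30414505-30414549. The exon at chr5:30380103-30380233 was 60 bases longer in Otof-001 than in Otof-002. The last coding exons differed, at chr5:30370101-30370278 in Otof-001 and at chr5:30367863-30368040 in Otof-002. They do not exclude each other, since the last exon of Otof-002 is also exon 47 of Otof-001, where it is noncoding. Both last coding exons are shown with the stop codon in capitals. They encode the carboxy terminus, where otoferlin is anchored in the membrane, and they resemble each other.
Otof-001: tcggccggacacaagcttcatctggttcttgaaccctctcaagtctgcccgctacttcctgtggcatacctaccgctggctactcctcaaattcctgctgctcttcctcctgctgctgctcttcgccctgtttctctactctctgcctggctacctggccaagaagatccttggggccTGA
Otof-002: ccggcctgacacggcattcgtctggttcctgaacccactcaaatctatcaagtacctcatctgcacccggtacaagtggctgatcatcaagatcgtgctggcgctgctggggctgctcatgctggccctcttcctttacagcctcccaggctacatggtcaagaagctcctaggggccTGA
Each had 178 coding bases before the stop codon. Set side by side without gaps, 119 of the 178 bases were identical (66.9%). Both exons thus code for the last 59 whole codons of their form. Beyond the stop codons the transcripts ended at the same base.

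Slc17a8 (ENSMUSG00000019935), the VGLUT3 gene, had the shortest span of the 6. It covered chr10:89574020-89621253, minus strand, a span of 47234 bases. Slc17a8-001 coded for 601 amino acids in 12 coding exons and 1806 bases, and 6095 genes had a longer coding sequence. Slc17a8-002 coded for 417 amino acids, 184 fewer, and held no coding base that Slc17a8-001 lacks. Its first exon, chr10:89599552-89599815, lay 21438 bases downstream of the start of Slc17a8-001, between exon 3 and exon 4 of that transcript, and was noncoding. Its start codon stood in exon 2. Each line shows 45 bases with the start codon in capitals, at chr10:89620897-89620899 in Slc17a8-001 and at chr10:89598709-89598711 in Slc17a8-002.
Slc17a8-001 start: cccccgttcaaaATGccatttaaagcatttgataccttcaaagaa
Slc17a8-002 start: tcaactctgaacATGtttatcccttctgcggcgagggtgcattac
The 184 codons missing from Slc17a8-002 came from the first 3 coding exons and from 40 bases of the fourth.

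**Figure D2:**
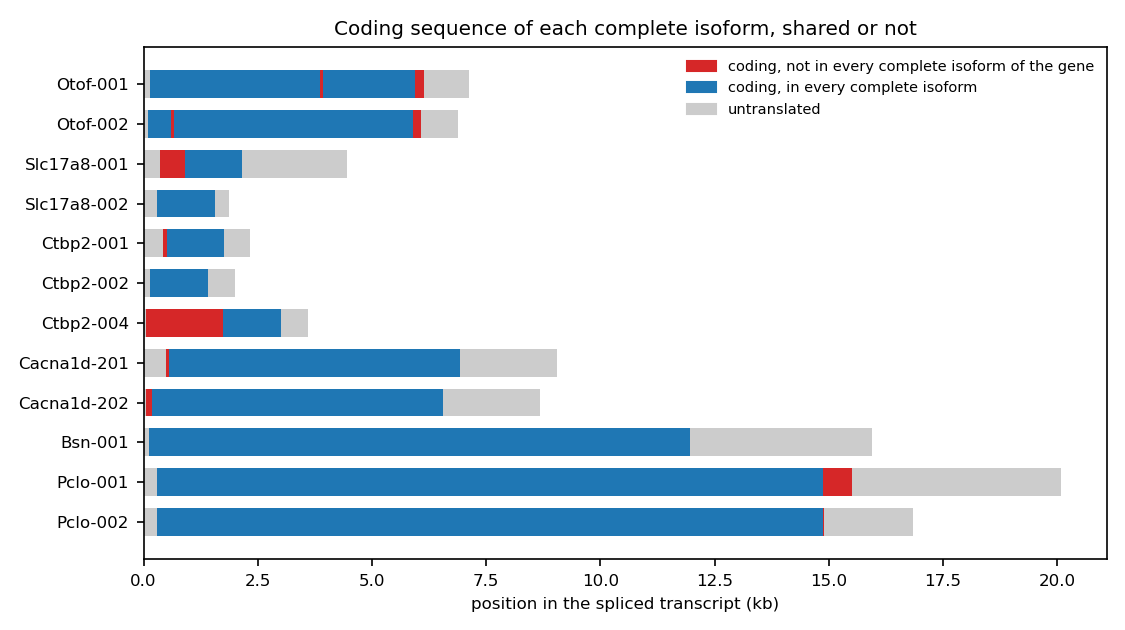
The 12 complete coding isoforms as spliced messages (horizontal axis, position in kb from the 5' end). Red marks coding bases that are not in every complete isoform of the gene, blue coding bases in every one and grey untranslated bases; Bsn has 1 complete isoform, so all its coding bases are blue. Stop codons are drawn as coding. The red part opens Ctbp2-004 with 1704 bases, the 1687 of the ribeye-type exon and 17 that Ctbp2-002 lacks, and closes Pclo-001 with 632 bases.

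Side by side, the isoforms of the 6 genes were separated at different places. The coding sequences of the forms of Ctbp2, Cacna1d and Slc17a8 differed at the start. Those of Pclo differed at the end, and those of Otof at the end and at 2 exons within. The difference in protein length was 543 amino acids between Ctbp2-004 and Ctbp2-001, 205 in Pclo, 184 in Slc17a8, 22 in Cacna1d and 5 in Otof. All 6 genes had at least 2 distinct coding sequences, as did 45.6% of all protein-coding genes. Over the 6 genes there were 23 of them among 35 transcripts, of which 12 were complete, with both a start and a stop codon. At least 2 first exons with different start codons were found in Ctbp2 and Cacna1d, against a background of 6.21%. In Ctbp2 these were the first exons of Ctbp2-004 and of Ctbp2-018, a model with no stop codon. The short form was not among them, as its start codon stood in exon 3.

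Set against all 21990 protein-coding genes, 4 of the 6 had a coding sequence of at least 5000 bases (Otof, Cacna1d, Bsn and Pclo), which 3.32% of all genes have. A coding exon of at least 1500 bases was present in 3 (Ctbp2, Bsn and Pclo), against 6.14%. A span of at least 100000 bases was present in 3 (Ctbp2, Cacna1d and Pclo), against 11.1%. The median longest coding sequence was 6247.5 bases in the 6 genes, 2667 in 27 other synapse genes and 1170 in all protein-coding genes. For the longest coding exon the medians were 1026, 371 and 339 bases. The median span of the 6 genes, 115831.5 bases, was near that of the other synapse genes, 121386 bases, and the median of all genes was 16537 bases. The genes were picked as known synapse genes, so these shares and medians describe them and say nothing about how such genes come to be long.

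**Figure D3:**
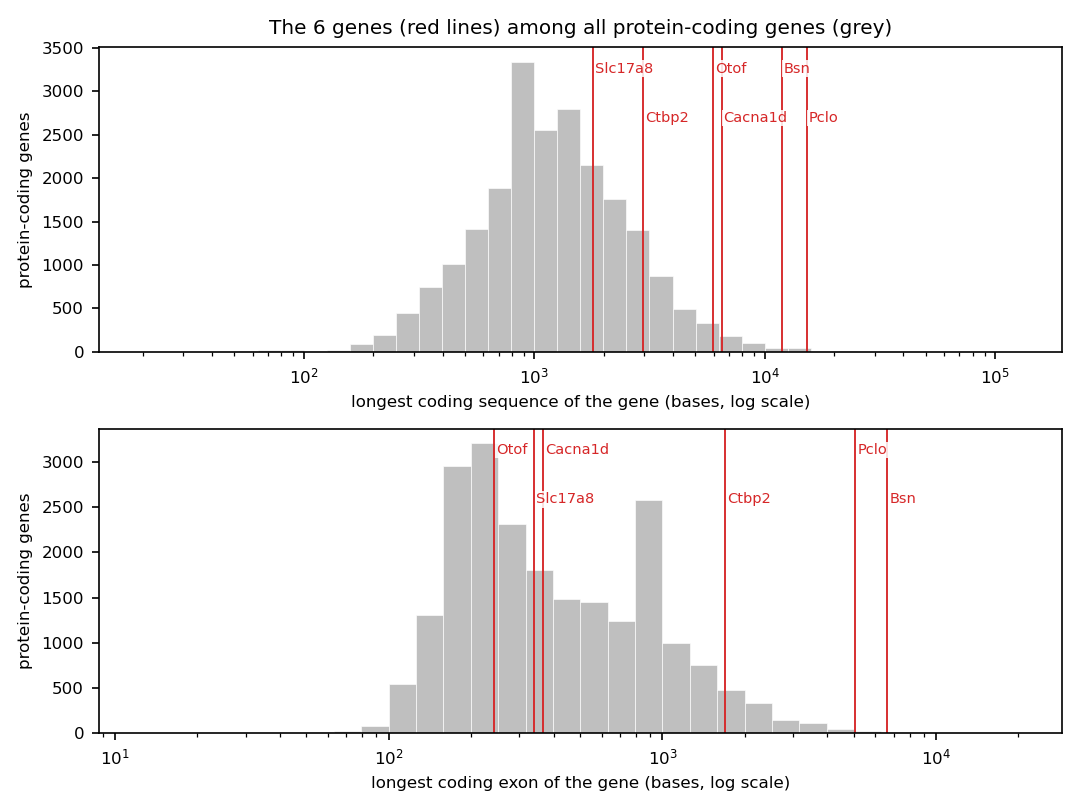
Number of protein-coding genes (grey bars, 21990 genes in each panel) by longest coding sequence (upper panel) and by longest coding exon (lower panel), in bases on a log scale, with a red line for each of the 6 genes. Bsn and Pclo stand in the far right tail of both panels, whereas Otof, with 5994 coding bases, has a longest coding exon of 242 bases, below the median of 339 bases in the lower panel.

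The stop codon offered another contrast. In the longest coding transcript of Otof and of Bsn it stood before the last exon, which holds for 3.87% of all genes. It lay 22 bases before the last junction in Otof-001 and 107 bases before it in Bsn-001. In Bsn-001 this left 12 exons of which 10 were coding. In Otof-002 the stop codon lay in the last exon.

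Paralogues, the genes that arose from a common ancestor with a member, showed which of these features a family shares. Ctbp1, the paralogue of Ctbp2, coded for 441 amino acids, close to the 445 of the short form, and its longest coding exon had 282 bases, against 1687 in Ctbp2. Its span was 27272 bases. It too had 2 first exons with different start codons. No coding exon of 1500 bases or more was found in any of the 10 paralogues. Bsn and Pclo, which are paralogues of each other, are members and not among the 10. Both have such an exon.

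The ferlins, the family of otoferlin, were alike in coding length but not in span. Their longest coding sequences were 6363 bases in Dysf, the dysferlin gene, 6147 in Myof, the myoferlin gene, 6117 in Fer1l5 and 5589 in Fer1l6, against 5994 in Otof. The longest coding exon was 212 bases in Dysf, 193 in Myof, 191 in Fer1l5 and 353 in Fer1l6. Spans were 202471, 144542, 49820 and 155045 bases in the same order, against 94871 in Otof. Coding exons numbered 56, 53, 53 and 40, against 46 in Otof-001. None of these 4 had the stop codon before the last exon, as Otof-001 has. Slc17a6 and Slc17a7, which encode the vesicular glutamate transporters VGLUT2 and VGLUT1, had 12 coding exons each, as Slc17a8-001 has. They coded for 582 and 560 amino acids, against 601 in Slc17a8-001, and had 1 coding sequence each.

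Among the other pore-forming subunit genes of the CaV1 family, Cacna1c, the main cardiac and neuronal one, coded for 2222 amino acids and spanned 609179 bases. Cacna1f, known from photoreceptor ribbon synapses, coded for 1984 amino acids in a span of 28114 bases, against 451208 bases in Cacna1d. Cacna1s, the skeletal muscle gene, coded for 1852 amino acids in 67073 bases. Their coding exons numbered 48, 48 and 44, against 47 in Cacna1d. At least 2 first exons with different start codons were annotated in Cacna1c and Cacna1f but not in Cacna1s. Coding exon numbers were thus close while the spans were not.

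The 27 other synapse genes cover channel subunits, active zone scaffolds, vesicle fusion, motors, endocytosis and the afferent terminal. Whether hair cells use each of them was not analysed here. Of the 27, 15 spanned at least 100000 bases. A coding sequence of at least 5000 bases was present in 4 and a coding exon of at least 1500 bases in 3. Unc13b, a vesicle priming gene, had the longest coding sequence at 13173 bases, with 1 coding exon of 8367 bases that exceeds the longest of Bsn. Unc13c, of the same family, followed with 6633 bases and a longest coding exon of 2971 bases. Shank1, a postsynaptic scaffold gene, had 6504 bases and a longest coding exon of 3088 bases. The shortest coding sequences were those of the fusion genes Vamp2 (492 bases) and Snap25 (621 bases) and of the vesicle GTPase gene Rab3a (663 bases).

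At least 2 distinct coding sequences were annotated for 24 of the 27. At least 2 first exons with different start codons were present in 7 of them, as in Ctbp2 and Cacna1d. Cacnb2, a calcium channel beta subunit gene, had 4 such exons, and so did Dlg4, the PSD-95 gene. Cabp1 and Cabp2, which encode calcium-binding regulators of CaV1.3, had 2 each. Kif3a, a kinesin gene, Gria3, a glutamate receptor subunit gene, and Homer1, a postsynaptic scaffold gene, also had 2 each. The stop codon stood before the last exon in 3 of the 27.

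Because the libraries were read from the 3' end, the last 500 exonic bases of the complete isoforms were compared next. Where the reads of either library fell was not analysed here. The long and the short form of Ctbp2 shared 457 of these 500 bases, and their annotated 3' ends lay 43 bases apart. Ctbp2-004 and Ctbp2-002 shared 494 bases, and Ctbp2-001 and Ctbp2-002 shared 463. Both forms of Otof shared all 500 bases, and so did both forms of Cacna1d. For Cacna1d this was lost in GENCODE M21, a later annotation of the same build, where 1 of the last 500 bases of Cacna1d-201 was shared with Cacna1d-202.

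The forms of Slc17a8 and of Pclo shared none of their last 500 bases. A pair of complete isoforms with no shared base there was present in 2 of the 5 members with at least 2 complete forms, against 52.1% of 7158 protein-coding genes with at least 2 complete coding sequences, and in 15 of 22 of the other synapse genes. The nature of the separation differed between the genes. The 3' end of Slc17a8-002 lay 1991 bases before that of Slc17a8-001, and all 500 of its last bases are also exonic in Slc17a8-001. In Pclo, 0 of the last 500 bases of Pclo-002 are exonic in Pclo-001, and the reverse count was 0 as well. Between the complete forms, the windows of Pclo were therefore sequence of their own, whereas that of Slc17a8-002 was not. Pclo-004, which has no start codon, also holds the window of Pclo-002. Its last exon runs to 14796004, past the end of Pclo-002 at 14795993.

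**Figure D4:**
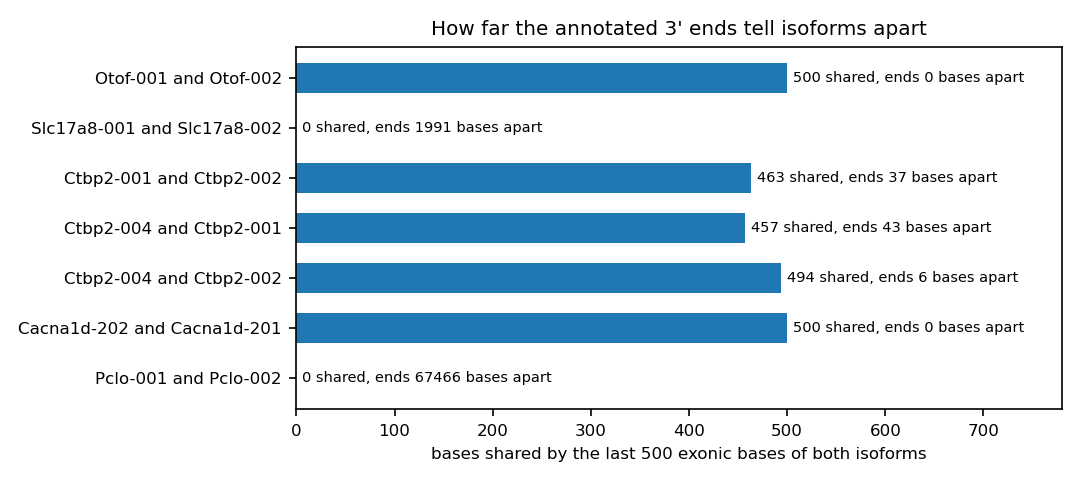
Bases that the last 500 exonic bases of both isoforms have in common (horizontal axis, 0 to 500) for the 7 pairs of complete isoforms, with the distance between their 3' ends written beside each bar. The 3 pairs of Ctbp2 share 457 to 494 bases, the pairs of Otof and Cacna1d share 500, and those of Slc17a8 and Pclo share 0.

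Over protein-coding transcripts, the longest untranslated 3' parts ran from 593 bases in Ctbp2 and 1001 in Otof to 3983 in Bsn and 4573 in Pclo. Ctbp2-003, the target of nonsense-mediated decay, had 2610 bases after its early stop codon and is not counted here. Cacna1d had 2124 bases and Slc17a8 2296. The median of the 6 was 2210 bases, against 1718 in the other synapse genes and 732.5 over 21698 protein-coding genes with a value. Across all transcripts, Ctbp2 had 19 distinct 3' ends, Otof and Pclo 4 each, Slc17a8 and Bsn 2 each and Cacna1d 1, against 10 for Cacna1d in GENCODE M21. Many of the ends in Ctbp2 belonged to models that broke off inside the gene.

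A polyadenylation signal, searched as AATAAA or ATTAAA on the transcript strand within the last 50 bases, was present in 9 of the 12 complete isoforms, against 76.7% of 15352 complete coding transcripts, 1 per gene and with the same version in GENCODE M21, with an untranslated 3' part of at least 50 bases. It began so that 18 bases followed it in both forms of Otof, 24 in Bsn-001, 15 in Pclo-001 and 8 in Pclo-002. Both forms of Cacna1d had ATTAAA with 11 bases after it, and both forms of Slc17a8 had AATAAA with 6 bases after it. Slc17a8-001 also had ATTAAA with 15 bases after it. Both forms of Otof end at the same base, as do both of Cacna1d, so the 9 isoforms hold fewer separate ends. The 3 complete isoforms of Ctbp2 had neither motif in the last 50 bases, alone among the 6 genes. Their nearest match in the last 500 bases lay 176 bases before the end in Ctbp2-004, 133 in Ctbp2-001 and 170 in Ctbp2-002. A run of 16 A stood 27 bases before the end of Ctbp2-004 and 21 bases before that of Ctbp2-002. The model of Ctbp2-001 ends 43 bases before that of Ctbp2-004 and stops short of this run. Within it the longest run of A had 5 bases, and in the other 9 isoforms it had 4 to 7. A run of at least 10 A was thus present in 2 of 12 isoforms, against 5.45% of the same 15352 transcripts. Both are forms of Ctbp2 that hold the same run, as their ends lie 6 bases apart. Ctbp2 was thus the only gene of the 6 with such a run. What oligo-dT priming at such a run contributes to counts was not tested.

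Exons of other genes overlapped exons of Ctbp2, Cacna1d and Pclo. Ctbp2 shared 314 exonic bases with a same-strand gene, Fgfr2, which encodes a fibroblast growth factor receptor, and 4.04% of all genes overlap a same-strand exon of a neighbour. None of these bases lay in the last 500 of a complete isoform of Ctbp2. They came from 1 model, Fgfr2-007, whose exons 1 and 2 were exons of Ctbp2. Exon 2, chr7:133081757-133081860, is identical to the second exon of the short form. Its exon 3 lay 2908817 bases further on, in Fgfr2 itself, and held the start codon of a coding sequence for 182 amino acids. The outermost of all the other Fgfr2 transcripts, of 27 in total, lay 2721299 bases from Ctbp2.

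At the 3' end of Cacna1d, the gene Chdh, which encodes choline dehydrogenase, lay on the opposite strand. Its exons covered all 500 of the last bases of both Cacna1d forms and 518 bases in all. In GENCODE M21 they covered 500 of the last bases of Cacna1d-202, 88 of those of Cacna1d-201 and Cacna1d-209, and 0 of those of Cacna1d-204 and Cacna1d-207. An opposite-strand exon in the last 500 bases was present in 1 of the 6 members, against 11.5% of all genes. In Pclo, the antisense genes Gm26918 and Gm26954 overlapped exons by 429 and 496 bases, with 0 bases in the last 500 of any transcript. The sources used here do not say whether reads were assigned by strand. Whether reads from Chdh and Cacna1d were kept apart at this place was not tested.

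Promoters were taken from RefSeq on GRCm38.p6 as 300 bases, 250 before and 50 from the start site on. They were present for 5 of the 6 members, 8 promoters in all. Otof had no entry, and Ctbp2 had none at the start of the short form. The ratio of observed to expected CpG, a measure of CpG islands, was at least 0.6 in 3 of the 8, against 35.8% of 32851 promoters. These were the promoters of Bsn-001 (0.997, with 72.3% GC), Pclo-001 (1.08, with 66.0% GC) and Cacna1d-201 (1.18, with 87.3% GC). The median promoter had 52.7% GC and a ratio of 0.384.

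The alternative promoters of Cacna1d were far apart on this scale. That of Cacna1d-202 had 40.3% GC, 4 CpG and a ratio of 0.338, whereas that of Cacna1d-201 had 63 CpG, and 5 of all 32851 promoters had a higher GC content. They are printed here with CpG in capitals, at chr14:30491107-30491406 and chr14:30353437-30353736 on the minus strand.
Cacna1d-202 promoter: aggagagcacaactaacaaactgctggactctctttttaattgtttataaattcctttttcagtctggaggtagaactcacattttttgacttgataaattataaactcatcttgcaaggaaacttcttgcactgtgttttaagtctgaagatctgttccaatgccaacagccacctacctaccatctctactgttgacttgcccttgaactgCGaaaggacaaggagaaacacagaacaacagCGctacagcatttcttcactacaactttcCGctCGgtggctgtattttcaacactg
Cacna1d-201 promoter: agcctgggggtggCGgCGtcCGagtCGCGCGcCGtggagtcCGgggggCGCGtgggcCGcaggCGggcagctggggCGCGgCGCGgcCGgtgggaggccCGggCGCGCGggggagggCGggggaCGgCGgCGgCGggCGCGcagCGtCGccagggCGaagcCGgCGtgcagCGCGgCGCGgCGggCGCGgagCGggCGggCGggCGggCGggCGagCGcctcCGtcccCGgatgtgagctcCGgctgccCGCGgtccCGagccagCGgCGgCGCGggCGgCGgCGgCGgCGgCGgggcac
The capitals stand apart in the first line and fill the second.

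The promoter at the ribeye-type exon of Ctbp2, chr7:133015198-133015497 on the minus strand, had 52.0% GC, 8 CpG and a ratio of 0.399, close to the median of all promoters on both measures. Its start site lay 1 base from the start of Ctbp2-004. It is printed with its match to TATAAA in capitals.
Ctbp2-004 promoter: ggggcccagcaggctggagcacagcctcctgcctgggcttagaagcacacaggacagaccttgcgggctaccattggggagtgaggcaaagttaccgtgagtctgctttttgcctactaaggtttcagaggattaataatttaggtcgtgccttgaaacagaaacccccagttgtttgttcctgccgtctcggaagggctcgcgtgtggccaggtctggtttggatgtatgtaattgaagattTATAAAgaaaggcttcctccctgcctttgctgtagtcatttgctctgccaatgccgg
The motif TATAAA, searched on both strands, was present in 2 of the 8 promoters, that of Ctbp2-004 and that of Cacna1d-202, against 13.6% of all promoters. In Ctbp2-004 it began 7 bases before the start site, and a reverse-strand match overlapped it. In Cacna1d-202 the first match began 205 bases before the start site. The match is a description of letters and not of a bound site.

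The other promoter of Ctbp2 in that table began at 133081860, which is the 5' end of the second exon of the short form. In the annotation of the series this exon is internal, and the nearest annotated transcript start lay 29931 bases away. It had 43.7% GC and a ratio of 0.21. The promoters of Slc17a8 were both below 0.6 in ratio, with 58.0% GC and 0.279 for Slc17a8-001 and 45.0% GC and 0.395 for Slc17a8-002.

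**Figure D5:**
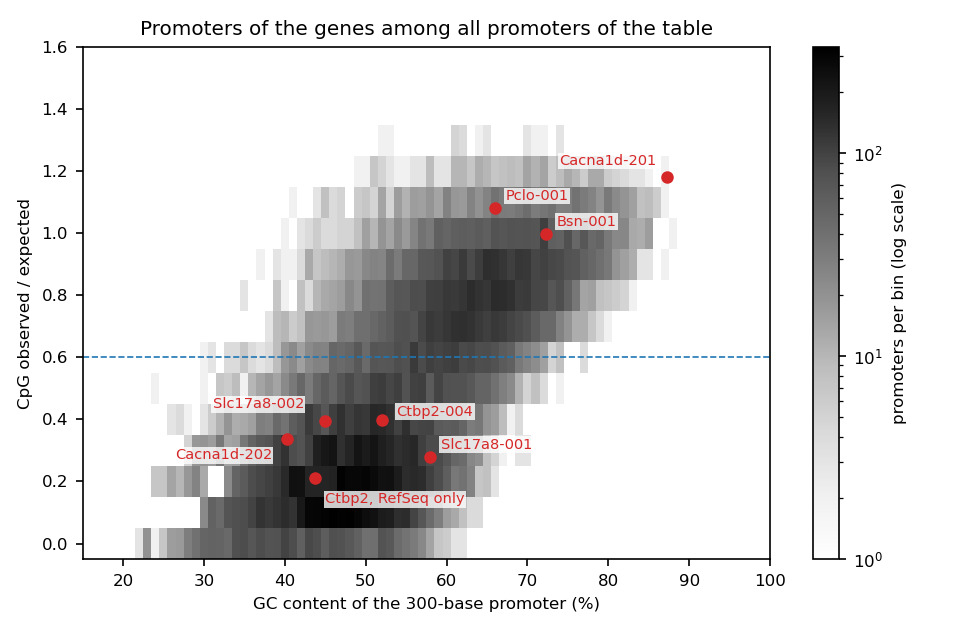
GC content (horizontal axis, %) against the ratio of observed to expected CpG (vertical axis) of the 8 promoters of member genes (red points) over all 32851 promoters of the table (grey, number per bin on a log scale). The dashed line marks a ratio of 0.6. Cacna1d-201 stands at the far right with 87.3% GC, while Cacna1d-202 lies at 40.3% GC and below the line, as does Ctbp2-004.

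The models of 5 of the 6 genes were the same in GENCODE M21. Of the 35 member transcripts, 33 had the same version and identical exons there. The other two were those of Cacna1d, which had 12 transcripts in M21, 5 of them protein-coding and complete. The longest, Cacna1d-207, had 49 coding exons and coded for 2179 amino acids, against 2166 in the longest model here. Of the 5, 4 used the start codon of Cacna1d-201 and 1 that of Cacna1d-202, and all 5 used the same stop codon. Both start codons of Cacna1d thus stood in both annotations, and the long and short first coding exons of Ctbp2 were identical in them.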

How the data were processed

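The input was a gene annotation (GTF) deposited by the authors, whose columns of positions in bases are genome coordinates and no measurement of a library. Per the file headers it follows GRCm38.p4 with a gene build of 2016. It held 27998 mouse genes and 4 added ones, and 0 columns of per-sample values, so that depth concerns no value here. Cell Ranger 2.0.2 is named, per the submitters' processing notes, but not for which step.

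Spans, merged exons, coding sequences, first exons and 3' ends were computed from the annotation with Python 3.11.15, NumPy 2.4.6 and Matplotlib 3.10.9, and the measures were checked on a made annotation with known answers. The background was the 21990 protein-coding genes with a protein-coding transcript; 58 without one were left out. First exons that overlap were merged. Exon and transcript sequences were read from GENCODE M21 transcripts on GRCm38, and promoters from RefSeq on GRCm38.p6. The members, the lists of 10 paralogues and 27 synapse genes and all thresholds were chosen with earlier results of these data known. All members and all paralogues are named, and of the synapse genes the 3 of longest coding sequence, the 3 of shortest coding sequence and each with at least 2 first exons with different start codons. Unc13b, Unc13c and Shank1 are also the 3 synapse genes with a coding exon of at least 1500 bases. The Ikzf2 and GFP libraries were grouped by their treatment label and were not compared, since no level was analysed here.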

Additional observations from a re-analysis of the deposited data

How the results depend on the processing

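Of 77 alternative values, 61 stayed within 1.5 times the reported value, changed or not, and 16 moved further. Of the 61, 2 members instead of 3 passed for span with a minimum of 200000 bases, and 2 instead of 3 for coding exons with a minimum of 3000 bases. With 50000 bases as the minimum, 5 members passed for span instead of 3. With 10000 coding bases as the minimum, 2 passed instead of 4. With whole exons measured instead of their coding parts, 5 instead of 3 had an exon of at least 1500 bases. Slc17a8 and Cacna1d were added by last exons of 2638 and 2418 bases, of which 339 and 291 were coding. No share of all genes is given for whole exons, so this count has no background. Distinct coding sequences fell by definition to 12, against 23, when a start and a stop codon were required, which left 3 of 12 in Ctbp2 and 1 of 2 in Bsn. Distinct 3' ends numbered 20, against 32, when ends within 100 bases were merged. In GENCODE M21 the coding sequences of Cacna1d numbered 5, against 2. With 0.5 and with 2 times the threshold, the background shares were 22.3% and 4.42% for span, 16.1% and 0.473% for coding length and 26.4% and 1.12% for coding exons. The M21 values for exon number, longest coding exon, 3' ends, 3' untranslated length and last 500 bases, and the windows of 200 and 1000 bases, were chosen after seeing the data. In M21 the 3' ends numbered 41 in all, against 32, and 10 in Cacna1d, against 1. Pairs of isoforms with no shared base in the last 500 numbered 8 there, against 2. No paired analysis was possible because the Ikzf2 and GFP groups had 1 library each and no result came from a test. No replicate could be left out, and no alternative was run for Ikzf2 against GFP expression.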

Other observations

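The added exon of Otof-002, at chr5:30414505-30414549 on the minus strand of GRCm38, has no stretch in Otof-001 and is printed here whole, in capitals.
Otof-002 exon: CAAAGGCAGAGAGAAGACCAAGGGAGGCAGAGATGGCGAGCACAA
It is 45 bases long and stood in 1 of the 2 protein-coding transcripts of Otof.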
